A study of Mus musculus with 24 samples.

Results

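The genes examined here are 10 genes that mark macrophages or build complement C1q: Spi1, Csf1r, Cx3cr1, Adgre1, Cd68, C1qa, C1qb, C1qc, Fcer1g and Fcgr3. They were taken by name from a table of 25361 genes, and each of the 10 was found there, had at least 1 TPM (transcript abundance scaled to gene length and to a fixed total per library) in all 24 libraries and entered every test. Macrophages are the resident phagocytes of the embryonic liver, where they clear dying cells and sit at the centre of islands of maturing red cells, and their liver-resident form is the Kupffer cell. PU.1, the product of Spi1, drives the macrophage programme, and the CSF1 receptor (Csf1r) carries the survival signal of the lineage. C1q, built from the A, B and C chains, binds immune complexes and dying cells and starts the classical complement pathway, and in the body it comes largely from macrophages. The γ chain encoded by Fcer1g couples activating Fc receptors such as the one encoded by Fcgr3 to intracellular kinases.

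Livers of mouse embryos at E12.5 were separated with CD146 beads into liver sinusoidal endothelial cells (LSECs) and the remaining non-EC cells, and RNA of each fraction was sequenced in 3 replicates for each of 4 genotypes. Controls were littermates without Cre. *Chd4-ECko* embryos carried Brg1 fl/+, Chd4 fl/fl and VE-cadherin-Cre, *Brg1-ECko* embryos carried Brg1 fl/fl, Chd4 fl/+ and VE-cadherin-Cre, and *Brg1/Chd4-ECdko* embryos, labelled Chd4/Brg1-ECDKO, carried Brg1 fl/fl, Chd4 fl/fl and VE-cadherin-Cre. CHD4 and BRG1 are the ATPase subunits of the NuRD and SWI/SNF chromatin remodelling complexes, and the design asks how their loss from endothelial cells, singly or together, alters expression in each fraction. All embryos were of mixed background and all samples are labelled as batch 1. The labels call the 3 samples of a group replicates, and the study's methods describe a data point as 1 embryo, so p-values measure the spread between these samples. VE-cadherin-Cre is driven by an endothelial promoter, and the study also records its activity in part of the blood cells of the fetal liver, so that a macrophage gene could be measured in cells with or without recombination.

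The fractions held more than their names say. The summed level of 8 endothelial genes, such as Cdh5 and Stab2, was 1364 to 1790 TPM in control LSEC libraries and 25.8 to 45.0 TPM in control non-EC libraries. Yet the Kupffer cell gene Marco was at 87.7 to 317 TPM over the 12 LSEC libraries. The listed Kupffer cell genes, Marco among them, summed to 574 to 1028 TPM in control LSEC libraries and 120 to 315 TPM in control non-EC libraries. For 7 mesenchymal genes the sums were 1006 to 1242 TPM in control LSEC libraries against 18.6 to 42.1 TPM in control non-EC libraries. The number of genes at 1 TPM or more was 12746 to 13219 for LSECs and 11450 to 11973 for non-EC cells. The mitochondrial share of the TPM was 13.9% to 31.5% among LSEC libraries and 2.33% to 7.69% among non-EC ones. The levels of the targeted genes did not separate the genotypes fully in LSECs. Chd4 was at 246 to 285 TPM in controls, 168 to 252 TPM in *Chd4-ECko* and 242 to 256 TPM in *Brg1/Chd4-ECdko*. Smarca4, the gene of BRG1, was at 134 to 161 TPM in controls, 111 to 157 TPM in *Brg1-ECko* and 117 to 151 TPM in *Brg1/Chd4-ECdko*. These values are per gene, and recombination was not tested here. By qRT-PCR the study reports lower Chd4 and Brg1 transcripts in the matching mutants, in E12.5 LSECs isolated by LYVE1. LSEC *Brg1-ECko* replicate 1 stood apart by its hepatoblast genes, which summed to 26684 TPM, above the 3096 to 6536 TPM of control LSECs.

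PU.1 binds purine-rich sites around a GAGGAA core, and because its own gene is among the 10, the bases just upstream of the others were searched for that core on both strands. RefSeq start sites (table of GRCm38.p6, each window matched once to GRCm39) were at hand for 6 of the 10 genes, Cx3cr1, Cd68, C1qb, C1qc, Fcer1g and Fcgr3, and GAGGAA lay within the 250 bases upstream of 4 of them, Cd68, C1qb, C1qc and Fcgr3. Of all 27025 genes in that table, 25.9% hold the core in a window of that length. The Fcgr3 windows belong to RefSeq starts 6577 and 6586 bases downstream of the annotated gene start, so they lie inside the gene. The windows of Cx3cr1 and Fcer1g, which lack the core, also lie inside the gene, with starts 1583 and 301 bases downstream. Those of C1qc and Cd68, with starts 151 and 71 bases downstream, lie inside it in part. The longer form GAGGAAGT, which contains the core, was present upstream of C1qc alone and of 2.79% of all genes. A match describes these letters and is not evidence of a bound site. The sequences upstream of C1qb, C1qc and Cd68 that lie outside annotated exons are shown 5′ to 3′ on the minus strand of GRCm39, with GAGGAA or its reverse complement TTCCTC in capitals: C1qb from chr4:136613512-136613761, C1qc from chr4:136620377-136620475 and Cd68 from chr11:69557068-69557246.
C1qb: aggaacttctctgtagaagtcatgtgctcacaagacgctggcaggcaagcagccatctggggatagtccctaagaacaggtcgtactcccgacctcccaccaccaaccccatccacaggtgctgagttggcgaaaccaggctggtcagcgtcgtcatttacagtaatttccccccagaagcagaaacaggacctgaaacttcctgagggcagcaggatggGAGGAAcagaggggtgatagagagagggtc
C1qc: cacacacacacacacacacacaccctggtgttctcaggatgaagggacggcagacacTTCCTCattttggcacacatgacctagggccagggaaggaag
Cd68: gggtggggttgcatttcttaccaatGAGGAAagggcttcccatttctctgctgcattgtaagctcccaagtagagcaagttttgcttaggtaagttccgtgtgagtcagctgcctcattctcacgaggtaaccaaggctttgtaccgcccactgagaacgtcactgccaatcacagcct

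In GRCm39 the C1q genes form a cluster of 20153 bp on chromosome 4, all on the minus strand, with C1qb at chr4:136606009-136613511, C1qc at chr4:136616466-136620376 and C1qa at chr4:136623223-136626161, each of 3 exons. Fcgr3 (chr1:170878738-170893549, minus strand) and Fcer1g (chr1:171057141-171062219, minus strand) lie within 183482 bp of each other, each with 5 exons. Spi1 is at chr2:90912562-90946101 (plus strand, 5 exons), Csf1r at chr18:61229714-61266535 (plus, 21 exons) and Cx3cr1 at chr9:119877749-119898945 (minus, 2 exons). Adgre1 spans chr17:57665573-57790527 (plus, 22 exons) and Cd68 chr11:69555037-69557067 (minus, 5 exons). Spi1, Cx3cr1, Cd68, C1qb and C1qc overlap a long noncoding RNA gene on the opposite strand, Csf1r overlaps Hmgxb3 and a microRNA gene, Fcer1g a long noncoding RNA gene on its own strand and Fcgr3 a microRNA gene, and reads of such partners could be counted in part with them. Fcgr3 shares stretches of sequence with other Fc receptor genes, so that its level is uncertain to that degree.

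All 10 genes were measured well above 1 TPM in control LSECs, the C1q chains highest. C1qb had 100.3 ± 20.5 TPM (SD, n = 3), C1qc 77.9 ± 15.2 TPM and C1qa 74.6 ± 15.0 TPM. Fcer1g followed with 48.7 ± 10.9 TPM, Cd68 with 33.2 ± 5.84 TPM, Fcgr3 with 26.9 ± 7.62 TPM, Csf1r with 23.7 ± 2.61 TPM, Adgre1 with 20.3 ± 4.49 TPM, Cx3cr1 with 15.0 ± 2.79 TPM and Spi1 with 9.79 ± 2.24 TPM. The ranges of neighbours in this order overlapped, except that C1qa (lowest control 60.5 TPM) stayed above Fcer1g (highest control 60.4 TPM). Among the 12873 genes with a control mean of at least 1 TPM in LSECs, C1qb stood at percentile 89.4 and Spi1 at percentile 35.9.

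Loss of endothelial *Chd4* was accompanied by higher levels of the macrophage genes in the LSEC fraction: 4 of the 10 genes, Cx3cr1, Fcgr3, Fcer1g and Spi1, rose past both thresholds, where 0.491% of all 13444 genes tested were called higher. The rule asked for a log2 fold change over 1 and an adjusted p under 0.05 in limma. The 10 log2 fold changes, on the log2(TPM + 1) scale, ran from 0.82 to 1.59 with a median of 1.06, beside a median of 0.01 for all genes. None was below 0, where 51.6% of all genes were above 0. For 9 of the 10 every *Chd4-ECko* library lay above every control library, which held for 8.7% of all genes, and each of the 10 had an unadjusted p under 0.05, as did 6.49% of all genes. In these bulk samples more cells of a type and more RNA per cell cannot be told apart. The study stained liver sections of a later stage for leukocyte and macrophage markers, and it describes no obvious difference between control and mutant livers.

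Spi1, the gene of the lineage-defining factor PU.1, was at 9.45, 7.74 and 12.2 TPM in the 3 control LSEC libraries and at 15.4, 23.4 and 28.7 TPM in the 3 *Chd4-ECko* libraries. The groups did not overlap, and the lowest *Chd4-ECko* value belonged to replicate 1. Its log2 fold change was 1.10 ± 0.22 (SE, adjusted p = 0.0351 in limma), and its mean was 2.30-fold that of controls.

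Of the receptors that tune macrophage survival and position, Cx3cr1 moved farthest. This receptor for the chemokine CX3CL1 marks yolk sac-derived macrophages and their progenitors, and it rose from 15.5, 11.9 and 17.4 TPM in controls to 30.9, 53.5 and 61.3 TPM in *Chd4-ECko* LSECs. Its means differed 3.25-fold, with a log2 fold change of 1.59 ± 0.24 (adjusted p = 0.00560 in limma), and the lowest *Chd4-ECko* library was well above the highest control. Csf1r, the receptor for CSF1 and IL-34, was at 24.6, 20.7 and 25.7 TPM in controls and 40.04, 54.5 and 73.6 TPM in *Chd4-ECko*. Its groups did not overlap either, but its log2 fold change of 1.17 ± 0.27 missed the threshold (adjusted p = 0.0655 in limma).

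**Figure D1:**
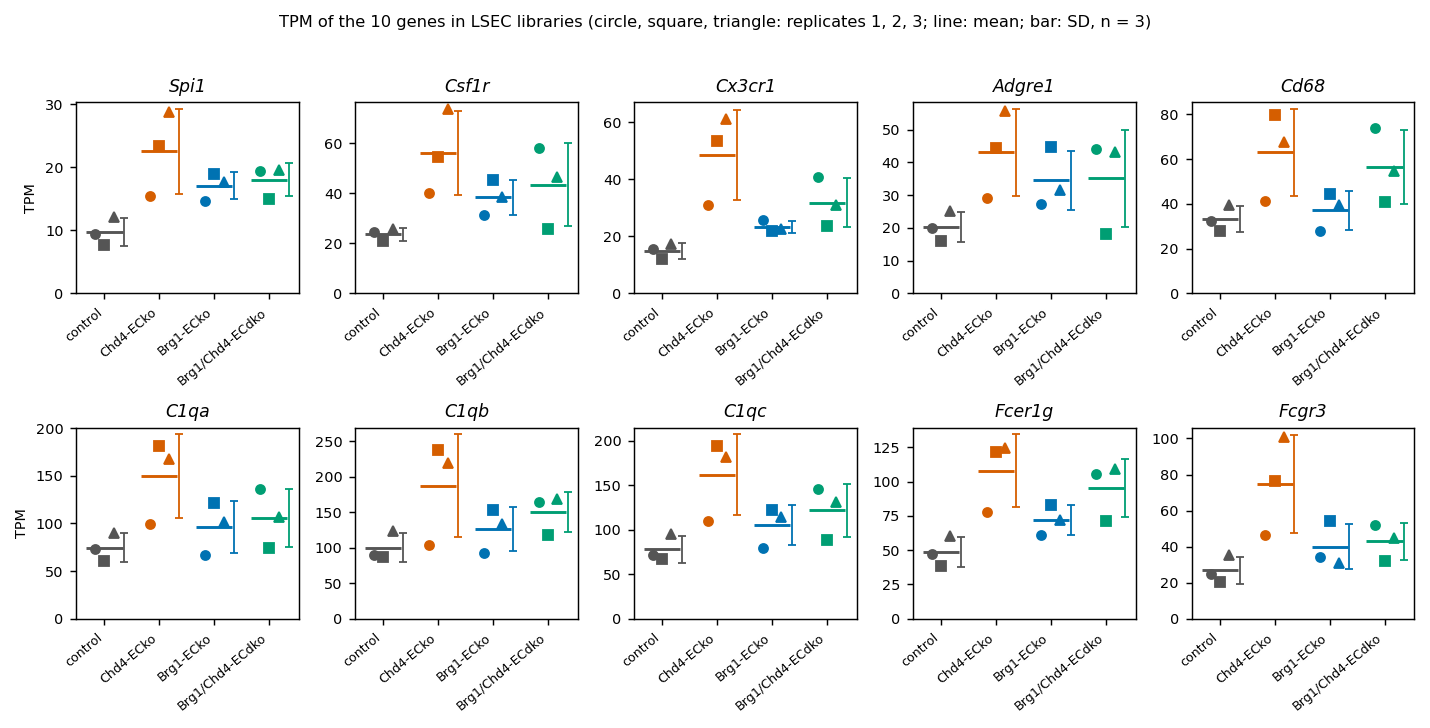
Each panel plots the TPM of 1 gene in the 12 LSEC libraries by genotype, with a symbol per replicate (circle, square and triangle for replicates 1, 2 and 3), a line at the mean and a bar for the SD (n = 3). In each of the 10 panels the mean is lowest in controls and highest in *Chd4-ECko*, and *Chd4-ECko* replicate 1 (circle) is the lowest of its group.

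The surface and lysosomal markers gave smaller or more scattered differences. Adgre1 encodes F4/80, the classical surface marker of mouse tissue macrophages, and was at 19.8, 16.1 and 25.0 TPM in controls and at 29.2, 44.3 and 55.6 TPM in *Chd4-ECko* LSECs, a log2 fold change of 1.02 ± 0.32 (adjusted p = 0.260 in limma). Cd68, which encodes a glycoprotein of the macrophage lysosome, was at 32.2, 28.0 and 39.5 TPM in controls and at 41.5, 79.9 and 67.7 TPM in *Chd4-ECko* LSECs, a log2 fold change of 0.87 ± 0.26 (adjusted p = 0.230 in limma). Neither gene had overlapping groups, but the lowest *Chd4-ECko* value, from replicate 1, was close to the highest control for Cd68.

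The C1q chains had means 1.87-fold to 2.08-fold those of controls and did not pass the test. C1qa was at 72.8, 60.5 and 90.4 TPM in controls and at 99.0, 182 and 168 TPM in *Chd4-ECko* LSECs, and C1qc at 71.8, 66.8 and 95.2 TPM against 110.3, 195 and 182 TPM. C1qb was at 90.2, 86.8 and 124 TPM in controls and at 104, 238 and 220.0 TPM in *Chd4-ECko* LSECs, and it was the single gene of the 10 whose groups overlapped. In each of the 3 genes replicate 1 of *Chd4-ECko* was near or below the top control value, while replicates 2 and 3 were far above it. The log2 fold changes were 0.96 ± 0.27 for C1qa (adjusted p = 0.180), 0.82 ± 0.28 for C1qb (adjusted p = 0.354) and 1.02 ± 0.24 for C1qc (adjusted p = 0.0811), all from limma.

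Both genes of Fc receptor signalling rose. Fcer1g, the shared signalling chain, was at 47.0, 38.8 and 60.4 TPM in controls and at 77.5, 122 and 125 TPM in *Chd4-ECko* LSECs, with a log2 fold change of 1.12 ± 0.22 (adjusted p = 0.0350 in limma). Fcgr3, which encodes an activating low-affinity receptor for IgG, was at 24.8, 20.6 and 35.4 TPM in controls and at 46.6, 76.2 and 101 TPM in *Chd4-ECko* LSECs, with a log2 fold change of 1.40 ± 0.29 (adjusted p = 0.0397 in limma). Every *Chd4-ECko* library was above every control for either gene, and the means were 2.22-fold and 2.77-fold those of controls.

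The number of genes called rested on single libraries. Without *Chd4-ECko* replicate 1, the lowest library of its group for all 10 genes, 9 of the 10 were called, all but Adgre1. Without *Chd4-ECko* replicate 3 none was, the lowest adjusted p in limma being the 0.0603 of Cx3cr1, and without *Chd4-ECko* replicate 2, control replicate 1 or control replicate 2 the call of Cx3cr1 alone was left. Over 15 alternative fits the adjusted p of Cx3cr1 ran from 0.00105 to 0.0603 and it was called in 14, Spi1 (0.00570 to 0.244) and Fcer1g (0.00796 to 0.249) in 9 each and Fcgr3 (0.00874 to 0.304) in 7. The mitochondrial share was 31.5%, 20.4% and 14.1% in replicates 1, 2 and 3 of *Chd4-ECko* LSECs, against 24.5%, 20.6% and 24.6% in controls, and with TPM rescaled without mitochondrial genes 3 of the 10 were called, Fcgr3 missing at an adjusted p of 0.0518 in limma. Leaving out LSEC *Brg1-ECko* replicate 1, the library with the high hepatoblast sum, changed no value of either group but raised the count to 6.

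In *Brg1-ECko* LSECs all 10 genes were above controls in their means, where 65.2% of all genes had a log2 fold change above 0. None of the 10 was called (0.00744% of all genes were called higher by limma). Log2 fold changes ran from 0.15 in Cd68 to 0.76 in Spi1, with a median of 0.56 beside 0.08 for all genes, and 5 of the 10 had an unadjusted p under 0.05, as did 9.68% of all genes. The low end of this range rested on single libraries: Cd68 and C1qa, at 0.15 and 0.35, were at 0.0050 and 0.17 without *Brg1-ECko* replicate 2 and at 0.34 and 0.59 without *Brg1-ECko* replicate 1. In 5 genes, Spi1, Csf1r, Cx3cr1, Adgre1 and Fcer1g, the *Brg1-ECko* libraries lay above all controls, which held for 10.9% of all genes. The controls are the same libraries as in the comparison of *Chd4-ECko*. Spi1 was at 14.7, 18.9 and 17.7 TPM, above every control but with an adjusted p of 0.302 in limma. Cx3cr1 was at 25.8, 21.7 and 22.4 TPM and Csf1r at 31.3, 45.4 and 38.4 TPM. The remaining levels were 34.6 ± 9.02 TPM for Adgre1, 37.2 ± 8.65 TPM for Cd68, 72.1 ± 11.01 TPM for Fcer1g and 39.9 ± 12.6 TPM for Fcgr3 (SD, n = 3). For the C1q chains they were 96.8 ± 27.3 TPM (C1qa), 126 ± 30.6 TPM (C1qb) and 106 ± 22.7 TPM (C1qc), each with a range that overlapped that of controls. Markers of other cells moved in the same comparison: all 7 hepatoblast genes were above 0 (median log2 fold change 1.16, sum 5942 to 26684 TPM against 3096 to 6536 TPM in controls) and all 8 endothelial genes below 0 (median -0.46, sum 857 to 1368 TPM against 1364 to 1790 TPM), with none called, and their part in the result was not tested.

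*Brg1/Chd4-ECdko* LSECs, again against the same controls, were higher in all 10 means, where 76.7% of all genes had a log2 fold change above 0. Again none of the 10 was called by limma (0.491% of all genes were called higher). The median log2 fold change was 0.70 beside 0.16 for all genes, and 7 of the 10 had an unadjusted p under 0.05, as did 12.1% of all genes. Spi1, Cx3cr1, Cd68 and Fcer1g had non-overlapping groups, 4 of 10, against 20.8% of all genes. Cx3cr1 was at 40.8, 23.7 and 31.1 TPM, a log2 fold change of 1.02 ± 0.24 (adjusted p = 0.0717 in limma). Fcer1g was at 106, 71.0 and 109 TPM, a log2 fold change of 0.95 ± 0.22 (adjusted p = 0.0657 in limma). For both, replicate 2 was the lowest of its group, as it was for all 10 genes. C1qa had the smallest difference, with 136, 74.4 and 107 TPM and a log2 fold change of 0.48 ± 0.27, which was 0.28 without *Brg1/Chd4-ECdko* replicate 1 and 0.71 without replicate 2. The means of the others were 18.0 ± 2.62 TPM for Spi1, 43.5 ± 16.4 TPM for Csf1r, 35.1 ± 14.8 TPM for Adgre1, 56.5 ± 16.6 TPM for Cd68, 150.5 ± 27.9 TPM for C1qb, 122 ± 29.7 TPM for C1qc and 42.9 ± 10.03 TPM for Fcgr3.

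**Figure D2:**
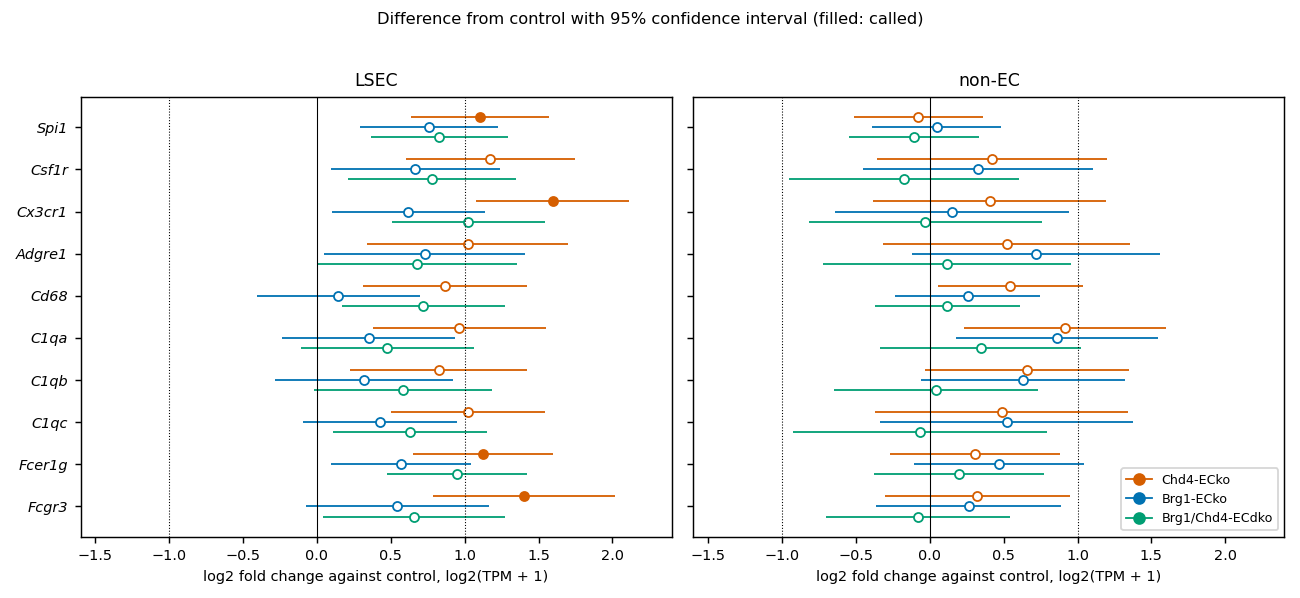
Points show the log2 fold change of each gene against control on the log2(TPM + 1) scale, by mutant genotype, in LSECs (left) and non-EC cells (right), with 95% confidence intervals from limma, dotted lines at the fold threshold and filled points for called genes. The 4 filled points, Spi1, Cx3cr1, Fcer1g and Fcgr3, all belong to *Chd4-ECko* LSECs, and most non-EC intervals cross 0.

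The order of the means in LSECs was the same for all 10 genes, control, *Brg1-ECko*, *Brg1/Chd4-ECdko* and *Chd4-ECko* from low to high. The ranges of *Brg1-ECko* and *Brg1/Chd4-ECdko*, and of *Brg1/Chd4-ECdko* and *Chd4-ECko*, overlapped for every one of the 10. Set directly against *Chd4-ECko*, the *Brg1/Chd4-ECdko* LSECs were lower in all 10 means, with log2 differences from -0.74 to -0.15 and a median of -0.37, where the median of all genes was 0.13. None of the 10 passed the test in limma (0.0298% of all genes were called lower), 2 had an unadjusted p under 0.05 and in none did the libraries separate (2.25% of all genes did, downwards). The largest differences were those of Fcgr3, -0.74 (95% confidence interval -1.36 to -0.13, adjusted p = 0.469 in limma), and of Cx3cr1, -0.57 (-1.09 to -0.05, adjusted p = 0.473 in limma). With 1 library left out they ran from -1.04 to -0.49 for Fcgr3 and from -0.86 to -0.38 for Cx3cr1, in both cases between the fits without *Chd4-ECko* replicate 1 and without *Chd4-ECko* replicate 3. The smallest was that of Cd68, -0.15 (-0.70 to 0.41). For Cd68, Adgre1 and Fcer1g the sign turned when 1 library was left out, to 0.063, 0.067 and 0.023 without *Brg1/Chd4-ECdko* replicate 2.

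In non-EC cells no gene of the 10 was called in any mutant. Background rates of genes called higher were 0.434% for *Chd4-ECko*, 1.19% for *Brg1-ECko* and 0.115% for *Brg1/Chd4-ECdko*, and the median log2 fold changes of the 10 were 0.45, 0.40 and 0.01. At an unadjusted p under 0.05 there were 2, 1 and 0 of the 10 genes, beside 33.9%, 28.0% and 11.7% of all genes. C1qa came closest, with 32.8, 14.4 and 24.04 TPM in controls. Its *Chd4-ECko* libraries had 51.0, 34.9 and 45.8 TPM, and its *Brg1-ECko* libraries 37.0, 34.8 and 56.3 TPM. In either mutant all 3 libraries were above the controls, and the log2 fold changes were 0.92 ± 0.31 (adjusted p = 0.0738) and 0.86 ± 0.31 (adjusted p = 0.0963) in limma. Cd68 in *Chd4-ECko* and Adgre1 in *Brg1-ECko* were the other genes without overlap, so that 2 of 10 separated in each mutant, against 15.8% and 21.9% of all genes.

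Spi1 in non-EC cells showed no difference past the test in any mutant. The 3 control libraries had 20.8, 11.8 and 23.1 TPM and the *Chd4-ECko* libraries 18.5, 15.7 and 16.6 TPM. Those of *Brg1-ECko* had 16.7, 20.7 and 18.3 TPM and those of *Brg1/Chd4-ECdko* 16.3, 16.4 and 17.0 TPM. The controls spanned all mutant libraries, and the log2 fold changes were -0.08, 0.05 and -0.11, each with a 95% confidence interval that crossed 0. Cx3cr1 was likewise at 17.6, 7.46 and 19.3 TPM in controls and at 25.5, 13.8 and 17.9 TPM in *Chd4-ECko*, and its ranges overlapped. The levels of the remaining genes in controls were 19.7 ± 8.71 TPM for Csf1r, 8.65 ± 3.63 TPM for Adgre1, 15.3 ± 3.22 TPM for Cd68, 34.7 ± 12.9 TPM for C1qb, 32.7 ± 13.1 TPM for C1qc, 55.1 ± 19.3 TPM for Fcer1g and 21.2 ± 8.86 TPM for Fcgr3. In *Chd4-ECko* they were 25.4 ± 6.88, 12.9 ± 6.01, 23.0 ± 6.20, 53.7 ± 11.5, 45.1 ± 14.0, 65.3 ± 7.51 and 25.3 ± 5.15 TPM in that order. Control replicate 2 was the lowest control for all 10 genes in this fraction as in LSECs, whereas *Chd4-ECko* replicate 1, lowest for all 10 in LSECs, was highest for 8 in non-EC cells. *Brg1/Chd4-ECdko* non-EC cells were below *Chd4-ECko* in all 10 means, from -0.62 to -0.03, with 0 called (0% of all genes were called lower) and 0 at an unadjusted p under 0.05 in limma.

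**Figure D3:**
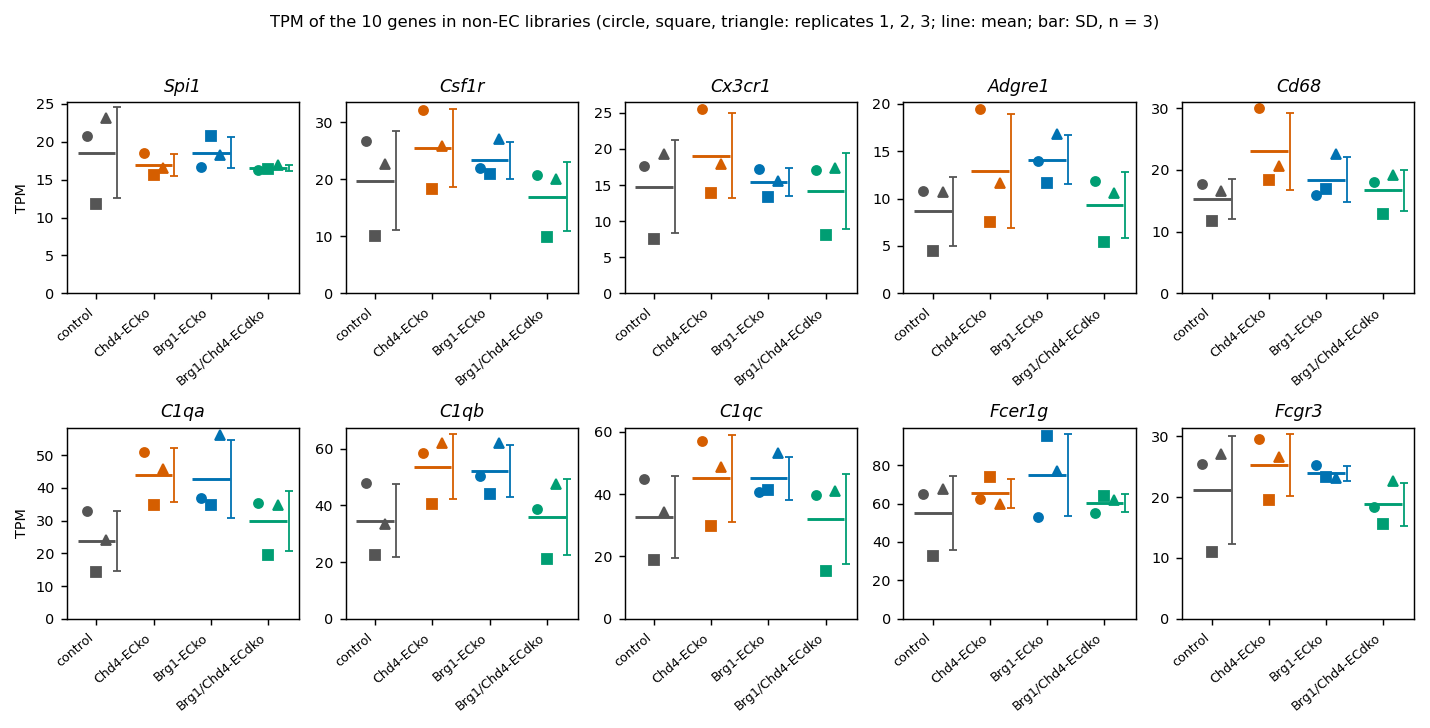
The TPM of each gene in the 12 non-EC libraries is plotted by genotype, with a symbol per replicate (circle, square and triangle for replicates 1, 2 and 3), a line at the mean and a bar for the SD (n = 3). Control replicate 2 (square) is the lowest control in every panel, at 11.8 TPM for Spi1 and 14.4 TPM for C1qa, and the genotypes overlap in most panels.

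Between the fractions the C1q chains and the tissue macrophage markers were higher in the CD146+ cells, whereas Spi1 was not. In controls 5 of the 10 were called higher in LSECs (19.4% of all 13775 genes were), with log2 differences in limma of 1.66 ± 0.31 for C1qa (adjusted p = 8.90e-05), 1.55 ± 0.32 for C1qb, 1.29 ± 0.34 for C1qc, 1.21 ± 0.38 for Adgre1 and 1.07 ± 0.26 for Cd68. For these 5 genes every control LSEC library was above every control non-EC library, against 34.9% of all genes. Spi1 was lower in control LSECs, by a log2 difference of -0.83 ± 0.22 (adjusted p = 0.00221 in limma) that did not reach the fold threshold. Csf1r (0.35), Cx3cr1 (0.10), Fcer1g (-0.13) and Fcgr3 (0.40) showed no difference past the test. Without non-EC control replicate 2 the calls were 2 higher and 1 lower, Spi1 now passing at -1.11 (13.3% of all genes were called lower with all libraries). In *Chd4-ECko* 8 of the 10 were called higher in LSECs (21% of all genes), against 4 for *Brg1-ECko* (18.3%) and 8 for *Brg1/Chd4-ECdko* (19.8%). Fcer1g and Spi1 were called in no genotype, and the log2 difference of Spi1 between fractions was -0.83 for controls, 0.35 for *Chd4-ECko*, -0.12 for *Brg1-ECko* and 0.11 for *Brg1/Chd4-ECdko*.

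Whether a mutant's effect differed between the fractions was tested in the model of all 24 libraries. For *Chd4-ECko* the effect was larger in LSECs for all 10 genes, by 0.05 (C1qa) to 1.19 (Cx3cr1), but none was called in limma (0.486% of all genes were called in that direction) and 4 had an unadjusted p under 0.05, as did 19.1% of all genes. Spi1 differed by 1.18 ± 0.31 (adjusted p = 0.0678), and with LSEC and non-EC libraries of the same number paired as a replicate block it passed (adjusted p = 0.0435 in limma). Cx3cr1 differed by 1.19 ± 0.46 (adjusted p = 0.187), Fcgr3 by 1.08 ± 0.44 (adjusted p = 0.199) and Fcer1g by 0.82 ± 0.36 (adjusted p = 0.232), all in limma. C1qa differed least, by 0.05 ± 0.44, and the other C1q genes differed by 0.16 ± 0.45 (C1qb) and 0.54 ± 0.49 (C1qc). For *Brg1-ECko* none was called, with 1 gene at an unadjusted p under 0.05 beside 17.9% of all genes (0.639% of all genes were called in either direction), and for *Brg1/Chd4-ECdko* none, with 2 such genes beside 7.57% of all genes (0.0218% of all genes were called higher).

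The 3 chains of C1q kept similar proportions while their sum varied. Summed over the chains, C1q was at 214 to 310 TPM in control LSECs and 313 to 614 TPM in *Chd4-ECko*, with the means of *Brg1-ECko* (240.0 to 397 TPM) and *Brg1/Chd4-ECdko* (282 to 447 TPM) between theirs, and at 55.7 to 171 TPM over the non-EC libraries. Of this sum C1qa made 26.4% to 31.6% in the 12 LSEC libraries, C1qb 33.2% to 42.0% and C1qc 30.6% to 35.2%. In non-EC libraries the ranges were 25.8% to 34.6%, 34.1% to 40.3% and 27.6% to 37.4%. In LSECs the shares of C1qa and C1qb overlapped between controls and each mutant, while that of C1qc was 30.6% to 31.2% in controls and lay above that in *Chd4-ECko* (31.7% to 35.2%) and *Brg1/Chd4-ECdko* (31.6% to 32.8%). In non-EC controls the C1qa share was 25.8% to 26.2%, below the 28.2% to 34.6% of all mutant libraries.

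**Figure D4:**
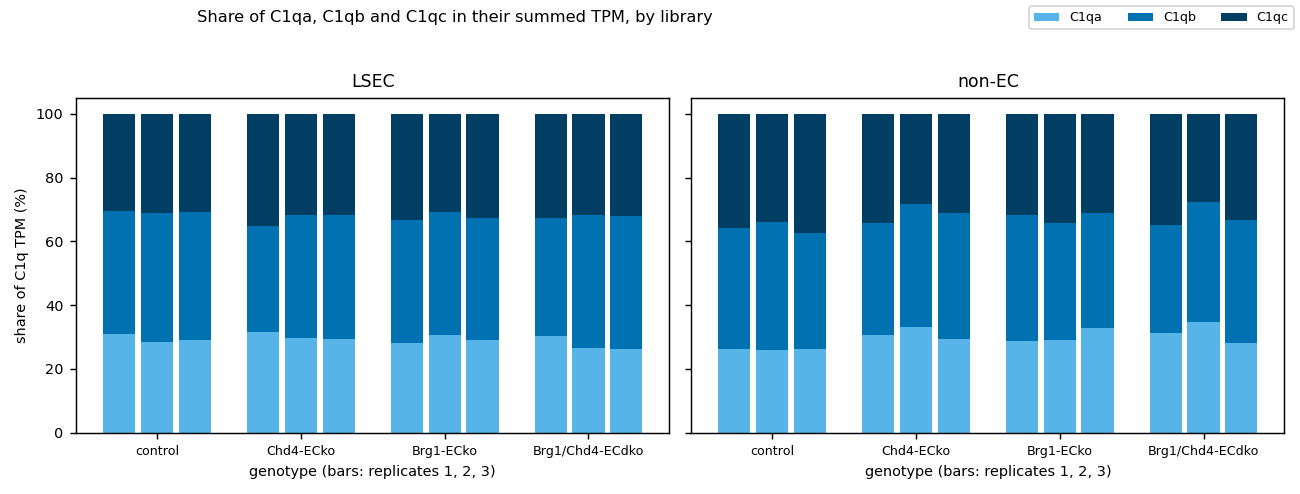
Stacked bars give the share (%) of C1qa, C1qb and C1qc in their summed TPM, 1 bar per library, for LSECs (left) and non-EC cells (right) by genotype. The shares stay within 25.8% to 34.6% for C1qa and 33.2% to 42.0% for C1qb over all libraries.

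Set against Csf1r, which stands for the lineage, some of the other genes differed between the fractions and others did not separate. The mean of the C1q chains per Csf1r was 2.55 to 4.01 in the 12 LSEC libraries and 1.35 to 2.12 in the 12 non-EC libraries, with no overlap. Spi1 per Csf1r was 0.335 to 0.584 in LSECs and 0.577 to 1.65 in non-EC cells, overlapping only at the edge. Fcer1g per Csf1r was 1.70 to 2.76 in LSECs and 1.94 to 6.45 in non-EC cells, and Adgre1 per Csf1r 0.703 to 0.985 against 0.404 to 0.633. Fcgr3 per Csf1r, at 0.809 to 1.40 in LSECs and 0.853 to 1.56 in non-EC cells, and Cx3cr1 per Csf1r, at 0.479 to 0.981 and 0.578 to 0.872, overlapped widely. Spi1 and Fcer1g are also active in other blood lineages, such as granulocyte and mast cell progenitors. Within LSECs Spi1 per Csf1r was 0.41 ± 0.05 in controls and 0.40 ± 0.02 in *Chd4-ECko* (SD, n = 3), whereas Cx3cr1 per Csf1r was 0.63 ± 0.05 in controls and 0.86 ± 0.11 in *Chd4-ECko*, its 3 values of 0.772 to 0.981 all above the 0.575 to 0.678 of controls. The Kupffer cell gene Cd5l was lower relative to Csf1r, from 2.80 to 4.69 in controls to 1.41 to 2.42 in *Chd4-ECko* LSECs. Cd5l itself had a log2 fold change of 0.31 there, beside 1.17 for Csf1r, so the lower ratio is not a fall of Cd5l. These ratios were not tested.

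The 10 genes moved together from library to library. Over the 12 LSEC libraries, which share their preparation and fall into 4 genotypes whose differences enter the levels, Pearson correlations of log2(TPM + 1) between pairs of them were 0.80 to 0.98 with a median of 0.91, and after removal of the group means 0.71 to 0.99 with a median of 0.87. The closest pair was C1qa and C1qc, neighbours in the cluster. In the 12 non-EC libraries the range was 0.35 to 0.97, and Fcer1g (median 0.45) and Spi1 (median 0.57) followed the others least. Of 13434 other genes tested in LSECs, the 10 most like the mean of the members were Fcgr1, Tifab, Cfp, AB124611, Slc11a1, Ifi30, Ctsb, Ly86, Lgmn and Igsf6, with correlations from 0.96 to 0.99. Fcgr1 encodes the high-affinity IgG receptor that signals through the chain of Fcer1g, Cfp the complement regulator properdin, and Ctsb and Lgmn lysosomal proteases. Of these 10, only Tifab was called in *Chd4-ECko* LSECs, from a mean of 4.38 to 12.4 TPM (log2 fold change 1.30, adjusted p = 0.0211 in limma).

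Genes of the same pathways outside the 10 gave a mixed picture in *Chd4-ECko* LSECs. Among the genes of Fc receptor signalling described here, which are used across blood lineages, those that rose were Ptpn6, a phosphatase that restrains such signals, Vav1, an exchange factor for Rac proteins, and Plcg2, a phospholipase. Ptpn6 went from 33.6, 29.2 and 43.5 TPM to 64.1, 92.0 and 86.1 TPM (log2 fold change 1.17, adjusted p = 0.00337 in limma) and Vav1 from 13.6, 11.1 and 16.4 TPM to 26.0, 34.3 and 35.2 TPM (1.16, adjusted p = 0.00345 in limma). Neither pair of groups overlapped. Of the other IgG receptors Fcgr1 had a log2 fold change of 1.08 (adjusted p = 0.0820 in limma), and Fcgr4 and Fcgr2b were at 4.45 ± 0.78 and 4.80 ± 1.20 TPM in controls and at 6.94 ± 2.89 and 5.51 ± 1.53 TPM in *Chd4-ECko*. Among 20 other complement genes tested none was called and 11 were above 0, with a median log2 fold change of 0.02. In *Brg1/Chd4-ECdko* LSECs Plcg2 (1.56, adjusted p = 0.00389) and Vav1 (1.01, adjusted p = 0.0104) rose in limma.

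Other macrophage genes were above controls without passing the test. All 16 tested on a list of further macrophage genes had a positive log2 fold change in *Chd4-ECko* LSECs, from 0.10 (Mrc1) to 1.09 (Tyrobp, the DAP12 adaptor), with a median of 0.59 and none called. On the list of Kupffer cell genes 9 of 10 were above 0 and none was called, the median being 0.52. The scavenger receptor gene Marco was at 191.8 ± 91.7 TPM in controls and 192 ± 45.4 TPM in *Chd4-ECko* LSECs, and Timd4, a receptor for dying cells, at 30.1 ± 7.92 and 58.1 ± 20.8 TPM. Of the ligands of the member receptors, Csf1 was at 17.8 ± 2.89 and 16.2 ± 2.06 TPM, while Il34 and Cx3cl1 stayed at or under 1.15 TPM in all LSEC libraries. None of 7 genes tested on the list of ligands and lineage factors was called. Cebpb, a lineage factor gene, missed the fold threshold alone, with a log2 fold change of 0.96 (adjusted p = 0.00337 in limma). In *Brg1/Chd4-ECdko* LSECs it was at 0.81 (adjusted p = 0.0105 in limma). Csf1 and Klf4 were below 0 in *Chd4-ECko*.

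Markers of leukocytes as a whole moved with the macrophage genes. All 11 pan-leukocyte genes were above 0 in *Chd4-ECko* LSECs with a median of 0.93, and 2 rose: Laptm5, a lysosomal protein of blood cells, from 26.2, 20.4 and 27.0 TPM to 53.8, 68.7 and 62.9 TPM (log2 fold change 1.30, adjusted p = 0.00174 in limma), and Rac2, a blood-cell GTPase, from 8.33, 7.50 and 10.6 TPM to 16.1, 25.9 and 24.4 TPM (1.22, adjusted p = 0.00764 in limma). Their summed level was 317 to 395 TPM in controls and 404 to 682 TPM in *Chd4-ECko* LSECs, beside 358 to 525 and 594 to 1082 TPM for the 10 genes. In *Brg1/Chd4-ECdko* LSECs Laptm5 (1.01, adjusted p = 0.00945) and Rac2 (1.13, adjusted p = 0.0126) also rose in limma. Neutrophil and monocyte genes were split, with 3 of 8 above 0 and none called (median log2 fold change -0.41, sum 428 to 1121 TPM in controls and 149.96 to 684 TPM in *Chd4-ECko*). The early granule gene Mpo was at 0.585 to 1.87 TPM in controls and 4.83 to 12.0 TPM in *Chd4-ECko* LSECs without overlap (log2 fold change 1.98, adjusted p = 0.398 in limma), and Prtn3, of the same stage, had 0.80, while Elane stayed at 0 to 0.611 TPM over all LSEC libraries. The late granule genes S100a8, S100a9, Ngp and Camp had log2 fold changes from -1.10 to -0.76. Mast cell genes were low but moved with the 10 genes: Cpa3 (1.14), Hdc (0.83) and Gata2 (0.56), which other cells also use, were above 0 with unadjusted p under 0.05 and none called, and the list summed to 8.93 to 12.3 TPM in controls and 15.4 to 21.6 TPM in *Chd4-ECko* LSECs. The mast cell protease gene Mcpt4 was at 0 in all 12 LSEC libraries. Medians were -0.00 for megakaryocyte, 0.45 for erythroid, -0.03 for hepatoblast, -0.07 for endothelial and -0.12 for mesenchymal genes, with none called in any list. The part of other cell types in the result was not tested.

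**Figure D5:**
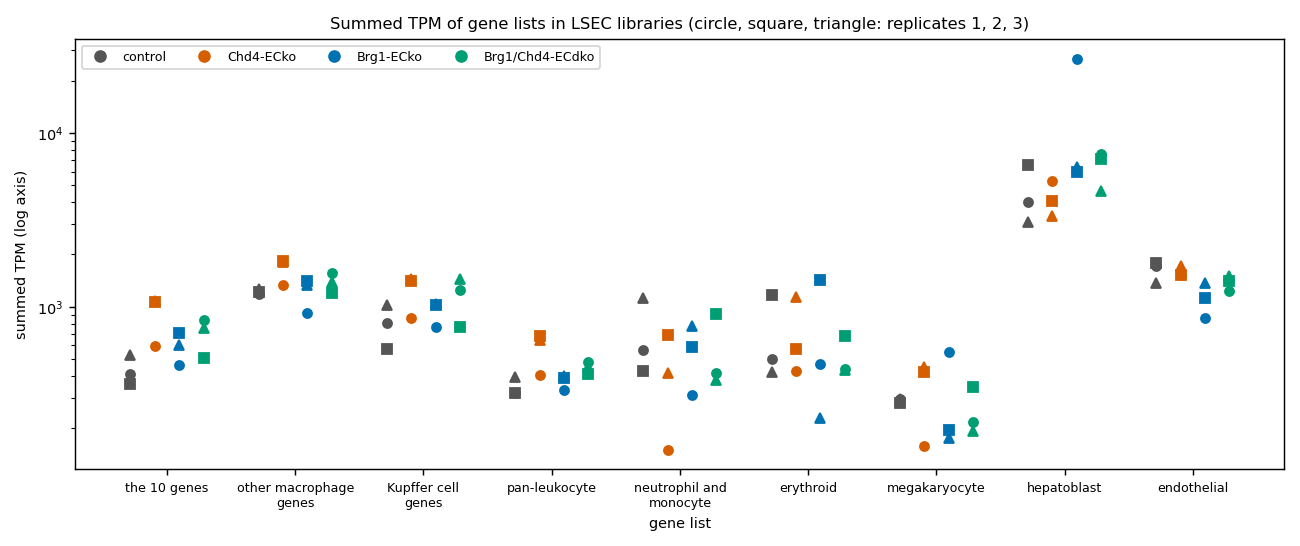
Points give the summed TPM (log axis) of 9 gene lists in each of the 12 LSEC libraries, coloured by genotype with a symbol per replicate. The 3 *Chd4-ECko* libraries lie above the 3 controls for the 10 genes (594 to 1082 against 358 to 525 TPM) and for the pan-leukocyte list, and *Brg1-ECko* replicate 1 stands alone in the hepatoblast list at 26684 TPM.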

How the data were processed

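RNA of CD146+ (LSEC) and CD146-negative (non-EC) fractions of mouse livers at E12.5 was measured in 24 libraries, 3 for each of 4 genotypes in each fraction. The authors removed runs of guanine from the reads, mapped them to GRCm39/mm39 and quantified genes in CLC Genomics Workbench. The deposited values are TPM (transcript abundance scaled to gene length and to a fixed total per library) of 25361 genes. TPM keep no library size, so the depth of each library is unknown and no counting interval could be given. The settings for strand and for reads matching several genes are not given in the sources used here. The authors' 8 columns of group means were not used, and 0 columns of other samples were found.

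Tests were made with limma 3.58.1 (R 4.3.3, data.table, version 1.17.8) on log2(TPM + 1), with a mean per group, a variance trend and two-sided p-values adjusted by the Benjamini-Hochberg method over all genes tested. Genes that reached 1 TPM in 3 or more libraries entered: 13444 in the LSEC model (12 libraries), 12223 in the non-EC model (12 libraries) and 13775 in the model of all 24 libraries. A gene was called at a log2 fold change over 1 in size and an adjusted p under 0.05, the study's thresholds. The limma step was tested on simulated data. Replicates of a group correlated at 0.981 to 0.996 and 0 pairs were identical.

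LSEC and non-EC libraries with the same genotype and number deviated together from their group means (12 of 12 pairs over 0.1, mean correlation 0.270, against -0.134 for different numbers). This pairing comes from the numbers in the labels and was used as a block in an alternative fit. The other alternatives changed the pseudocount (0.1), the filter, the scaling, the variance trend or the libraries in the model, and 1 of them, the fit without LSEC *Brg1-ECko* replicate 1, was chosen after seeing the data.

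The text names all 10 members, up to 4 genes per list called in a contrast described (smallest p first), defining markers of lists, and the 10 genes most like the members over the 12 LSEC libraries. Cebpb is named as well, for its adjusted p. A result of the Fc receptor signalling list is not reported here. Members and lists were chosen with earlier results of these data known. Positions come from GENCODE for GRCm39, sequences from RefSeq (GRCm38.p6), each matched once to GRCm39. Tables and figures were made in python 3.11.15 with numpy 2.4.6, pandas 2.3.3 and matplotlib 3.10.9.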

Additional observations from a re-analysis of the deposited data

How the results depend on the processing

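Of 15 counts of called genes, 11 stayed within 1.5 times of their value under every alternative, and 228 of 243 alternative values did. Most of these 11 counts were 0 in every fit, a value to which such a factor cannot be applied, so this tally does not measure stability. In *Chd4-ECko* LSECs (4 called) the count was 1 without the filter on low values or with quantile normalization, and 0 to 9 with 1 library left out. In *Brg1/Chd4-ECdko* LSECs (0 called) it was 1 with the 2 compared groups alone, and 0 to 1 with 1 library left out, the 1 being the fit without LSEC *Brg1-ECko* replicate 1. Between fractions in controls (5 called) it was 3 to 5 with 1 library left out. For the difference of the *Chd4-ECko* effect between fractions (0 called) it was 1 with quantile normalization, 1 with the replicate block that pairs fractions, and 0 to 2 with 1 library left out. The cause of these shifts was not tested.

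Signs turned in few genes, none of them called. For *Brg1/Chd4-ECdko* against *Chd4-ECko* LSECs the ranges with 1 library left out were -0.42 to 0.063 (Cd68), -0.59 to 0.067 (Adgre1) and -0.39 to 0.023 (Fcer1g). Between fractions in controls Fcer1g was 0.033 with quantile normalization, 0.14 without mitochondrial genes and -0.46 to 0.050 with 1 library left out, Cx3cr1 -0.30 to 0.33, Csf1r -0.056 to 0.61 and Fcgr3 -0.00040 to 0.61.

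Between genotypes of 1 fraction replicates share only a number: same-numbered libraries had a correlation of deviations over 0.1 in 13 of 18 LSEC pairs and 10 of 18 non-EC pairs. With the replicate block the count in *Chd4-ECko* LSECs was again 4, and calls over all genes went from 70 to 87. Apart from the difference between fractions given above, a replicate block changed no count of the 10 genes. With 3 libraries a group and unknown depth, differences near the threshold could not be resolved.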

Other observations

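Complement genes outside C1q differed in the non-EC fraction. Serping1, the gene of the C1 inhibitor, which blocks the proteases that C1q activates, rose from 31.8 ± 6.12 TPM in controls (SD, n = 3) to 67.7 ± 7.58 TPM in *Chd4-ECko* non-EC cells (log2 fold change 1.08, adjusted p = 0.00635 in limma) and to 78.5 ± 12.0 TPM in *Brg1-ECko* (1.28, adjusted p = 0.00148 in limma). In *Brg1-ECko* C3, the central component, rose from 355 ± 59.3 to 798 ± 179 TPM and Cfb, of the alternative pathway, from 102 ± 7.43 to 218 ± 50.8 TPM, while Cd55, which dismantles convertases on cell surfaces, fell from 22.1 ± 2.18 to 10.5 ± 1.19 TPM. These were 4 of 22 complement genes tested there, where 167 of all 12223 genes were called, with a median of 0.52 over the list beside 0.02 over all genes. Hepatoblasts make most of these plasma proteins, and the summed level of 7 hepatoblast genes moved with them, from 16084 to 17873 TPM in controls to 23535 to 35339 TPM in *Brg1-ECko* and 24674 to 33702 TPM in *Chd4-ECko*. Its part in the result was not tested.

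Among blood cell genes of the non-EC fraction, Ccr2, the monocyte chemokine receptor, fell from 4.40 ± 2.10 to 1.04 ± 0.58 TPM in *Chd4-ECko* (log2 fold change -1.36, adjusted p = 0.0192 in limma) and to 1.37 ± 0.32 TPM in *Brg1-ECko* (-1.11, adjusted p = 0.0292 in limma). Cpa3, a mast cell protease, fell from 11.3 ± 6.71 to 2.23 ± 0.49 TPM in *Chd4-ECko* (-1.76, adjusted p = 0.0291 in limma). Of 12 neutrophil and monocyte genes tested, 2 were called lower in *Chd4-ECko* and 1 in *Brg1-ECko*, where 108 and 167 of all 12223 genes were called in either direction. In *Brg1-ECko* 2 of 10 Kupffer cell genes rose: Nr1h3, the gene of the sterol receptor LXRα, from 10.2 ± 3.60 to 23.8 ± 5.98 TPM (1.18, adjusted p = 0.0242 in limma), and Id3, a transcriptional regulator, from 1.37 ± 0.39 to 4.16 ± 0.78 TPM (1.12, adjusted p = 0.00749 in limma). Of 15 Fc receptor genes 1 rose there, Fcgrt, which encodes the neonatal Fc receptor, from 22.9 ± 4.58 to 46.9 ± 8.40 TPM (1.00, adjusted p = 0.0148 in limma).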
